A study of Homo sapiens with 6 samples.

Results

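The genes described here are FAM98B, the 5 genes whose products work with it in the human tRNA ligase complex (RTCB, DDX1, RTRAF, C2orf49 and the cofactor ZBTB8OS) and its paralogues FAM98A and FAM98C. FAM98B was chosen because its unadjusted P value was the smallest of the RNA-seq comparison of ARMC5 knockdown with control cells, and the other 7 genes were chosen by complex membership or paralogy. These are 8 of the 35810 genes to which transcripts were assigned, and all 8 were among the 13737 genes with enough reads to be tested.

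The tRNA ligase complex joins the exons that remain after the tRNA splicing endonuclease has cut the intron out of a precursor tRNA. RTCB is its catalytic subunit, and the same enzyme seals XBP1 mRNA after IRE1 has cut it in the unfolded protein response of the endoplasmic reticulum. DDX1 is a DEAD-box RNA helicase, RTRAF, C2orf49 (ashwin) and FAM98B are further subunits without a known catalytic role, and ZBTB8OS (archease) keeps RTCB active over repeated rounds of ligation.

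RNA was taken from SPT5-AID cells, DLD-1 colorectal adenocarcinoma cells whose SPT5 was tagged for degradation by auxin. All cells had been infected with GIPZ lentivirus and selected with puromycin, and carried either an shRNA against ARMC5 (shARMC5, 3 replicates) or a nontargeting shRNA (shNT, 3 replicates). No auxin is named in their labels, and the sources used here do not say which of the study's ARMC5 hairpins was used, so that effects of the hairpin and of ARMC5 loss cannot be told apart. Polyadenylated RNA was sequenced to a depth of 26201112 to 40866478 reads on transcripts per library. The study's methods speak of biological replicates, the labels do not say whether these were separate cultures, and P values measure the spread between these libraries.

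ARMC5, the targeted gene and a CUL3 adaptor, had 10.8, 11.97 and 12.9 TMM-normalized CPM (read counts scaled to the library total and normalized between libraries, used to compare 1 gene between libraries) in the shARMC5 libraries and 23.0, 25.9 and 26.7 in the shNT libraries. The groups did not overlap. Its log2 fold change was -1.09 (SE 0.08, adjusted P = 5.32e-07), where SE is the standard error and the adjusted P, here and throughout, that of edgeR's quasi-likelihood test with Benjamini-Hochberg adjustment over all tested genes. Of 12 markers of colorectal epithelium, 8 were above 1 TPM (a level per length, used to compare genes) in every library, KRT20 and CDX1 were at 0, and LGALS4 and GPA33 were near or under 1 TPM. Of 10 markers of other cell types only CD68 was above 1 TPM in every library. The summed TPM of the epithelial markers was 8561 to 8864 in shARMC5 and 7574 to 8092 in shNT cells, and that of the other markers was 1.79 to 2.36 and 2.86 to 3.49. Their part in the results that follow was not tested.

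FAM98B (ENSG00000171262) occupies positions 38454127 to 38487710 of chromosome 15 (GRCh38, plus strand). It had 39.0, 40.5 and 39.1 CPM in the shARMC5 libraries and 91.3, 90.2 and 94.3 CPM in the shNT libraries, from 986 to 2985 reads. The groups were far apart and each was narrow, with means of 39.5 ± 0.810 and 91.9 ± 2.10 CPM (SD, n = 3 each) and a ratio of means of 0.430. The fit gave a log2 fold change of -1.22 (SE 0.04, 95% confidence interval -1.30 to -1.13). The P value that chose the gene was 8.34e-16 in edgeR's test, and that of FADS2, the next of all genes, was 2.74e-13. These values are the ones the choice was made on and are given as a description. In bulk RNA, less FAM98B mRNA per cell and fewer cells with the mRNA cannot be told apart.

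Nearly all FAM98B reads lay on one transcript. FAM98B-202, the MANE Select transcript of 4388 bases, held 97.3 to 99.8% of the reads of the gene in the 6 libraries. It had 1151, 1593 and 976 estimated reads in the shARMC5 libraries and 2957, 2887 and 2589 in the shNT libraries. Fitted on its own it had a log2 fold change of -1.21 (SE 0.04), close to that of the whole gene. Of 49809 tested transcripts 4 (0.00803%) were called, and FAM98B-202, on which the choice of the gene rests, was 1 of them (edgeR adjusted P = 0.00685). This call was lost without shARMC5 replicate 1, shARMC5 replicate 3, shNT replicate 1 or shNT replicate 3 (edgeR adjusted P of 0.111 to 0.148), while with any 1 library left out the log2 fold change lay between -1.24 and -1.19. The other FAM98B transcript with at least 5% of the TPM of the gene was FAM98B-204, an annotated fragment of 305 bases. It had 14.1, 0 and 0 reads in shARMC5 and 23.3, 33.5 and 42.3 reads in shNT libraries, and TPM, which divides by length, gave it 22.6, 0 and 0% of the gene in shARMC5 and 16.2, 21.7 and 28.4% in shNT libraries. FAM98B-203 held at most 1.48% of the reads, and FAM98B-201 was listed at 0 in every library. The share of the TPM of FAM98B held by FAM98B-202 was 91.4 ± 13.5% in shARMC5 and 77.6 ± 6.22% in shNT cells (SD, n = 3 each; two-sided exact permutation test, unadjusted P = 0.3, 1 of 8 such tests, where the smallest possible P is 0.1).

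**Figure D1:**
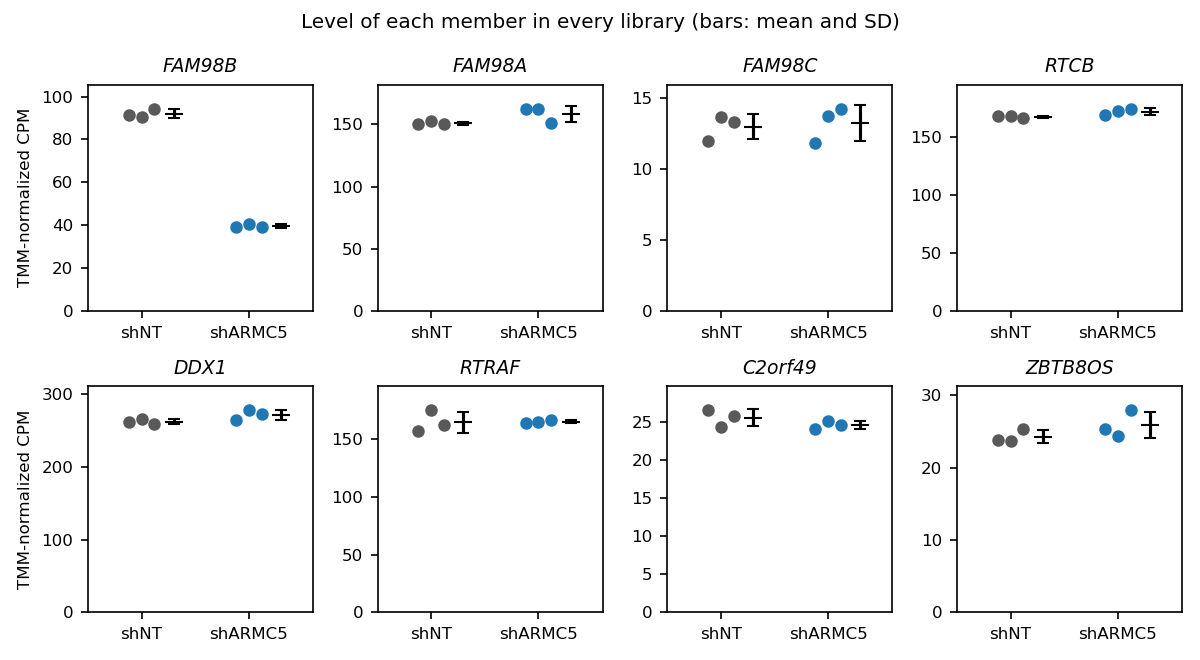
TMM-normalized CPM (vertical axes, from 0) of the 8 genes in each of the 3 shNT (grey) and 3 shARMC5 (blue) libraries, with the mean and SD of each group in black. FAM98B sits at 90.2 to 94.3 CPM in shNT and at 39.0 to 40.5 CPM in shARMC5 libraries, while in the other panels the points of both groups lie at nearly the same height.

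None of the 7 other genes passed the threshold of an adjusted P value under 0.1, beside 7.75% of all 13737 tested genes (4.44% higher and 3.3% lower). DESeq2 called 0 of the 7 as well, beside 877 of the 13737 tested genes. At an unadjusted P under 0.05, edgeR gave 1 of the 7, FAM98A, beside 18.1% of all tested genes, and DESeq2 gave 0, beside 13.4%. Of the 7 log2 fold changes 6 were positive and 1 was negative, with a median of 0.04, beside -0.0014 over all tested genes. Their median absolute log2 fold change was 0.05, beside 0.08 over all tested genes. RTCB was the 1 gene of the 7 whose groups did not overlap, and 23.4% of all tested genes had groups apart in this way.

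RTCB (ENSG00000100220, chromosome 22, 32387582 to 32412248, minus strand), the ligase itself, had 169, 172 and 174 CPM in shARMC5 and 167, 168 and 166 CPM in shNT libraries. The lowest shARMC5 library was just above the highest shNT library. Its log2 fold change was 0.04 (SE 0.03, edgeR adjusted P = 0.503), and its 95% interval of -0.02 to 0.10 leaves room for a level of 0.986 to 1.07 times that of shNT cells. RTCB-201 held at least 99.4% of its reads.

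DDX1 (ENSG00000079785, chromosome 2, 15591178 to 15634346, plus strand), the helicase, had 264, 277 and 272 CPM in shARMC5 and 261, 265 and 259 CPM in shNT libraries. The groups overlapped by the lowest shARMC5 library. With a log2 fold change of 0.05 (SE 0.03, 95% interval -0.0070 to 0.11, edgeR adjusted P = 0.349) it was not called. DDX1-201 held 95.5 to 99.3% of the reads. Fitted on its own, that transcript had a log2 fold change of 0.08 (SE 0.03, edgeR adjusted P = 0.902 over all transcripts).

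RTRAF (ENSG00000087302, chromosome 14, 51989514 to 52010694, plus strand), an RNA-binding subunit, had 164, 165 and 166 CPM in shARMC5 and 157, 175 and 162 CPM in shNT libraries. The shARMC5 libraries lay inside the range of the shNT libraries. The log2 fold change was 0.0034 (SE 0.04, 95% interval -0.07 to 0.08, edgeR adjusted P = 0.9747). RTRAF was spread over several abundant transcripts. RTRAF-206, of 851 bases, held 47.7% of the TPM summed over the libraries, RTRAF-207, annotated to undergo nonsense-mediated decay, 24.3%, the retained-intron RTRAF-203 16.1% and RTRAF-202 10.1%. The log2 fold changes of these 4 transcripts lay between -0.25 (RTRAF-202, SE 0.15) and 0.11 (RTRAF-203, SE 0.09). The MANE Select transcript RTRAF-201, of 7007 bases, held only 1.68% of the TPM but 15.8 to 17.9% of the reads, and 29.5% of its 31-base words also occurred in transcripts of other genes, most of them in NID2, which overlaps RTRAF on the opposite strand. NID2 had at most 4 reads in a library.

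C2orf49 (ENSG00000135974, chromosome 2, 105337532 to 105349211, plus strand) had 24.1, 25.2 and 24.6 CPM in shARMC5 and 26.6, 24.4 and 25.8 CPM in shNT libraries. It was the member other than FAM98B with a negative log2 fold change, -0.05 (SE 0.06, 95% interval -0.18 to 0.07, edgeR adjusted P = 0.701), and its groups overlapped. Its reads were divided between C2orf49-201 of 4587 bases (79.3 to 86.8% of reads) and C2orf49-202 of 854 bases, which held 54.3% of the TPM.

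ZBTB8OS (ENSG00000176261, chromosome 1, 32600172 to 32650903, minus strand), the archease cofactor, had 25.3, 24.4 and 27.9 CPM in shARMC5 and 23.9, 23.7 and 25.3 CPM in shNT libraries. The highest library was shARMC5 replicate 3, and the groups overlapped. This gave a log2 fold change of 0.09 (SE 0.07, edgeR adjusted P = 0.518), the largest of the 7, with a 95% interval of -0.05 to 0.23. ZBTB8OS-204, of 514 bases, held 57.3% of the TPM, and 5 more transcripts held between 5.01 and 7.26% each. The values of ZBTB8OS are uncertain, since 20.9% of the 31-base words of its MANE Select transcript also occurred in other genes, among them ZBTB8A on the opposite strand (295 to 492 reads, log2 fold change 0.08, SE 0.09), and the library kit named in the labels does not mark strand.

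FAM98A (ENSG00000119812, chromosome 2, 33532744 to 33599347, minus strand), the more abundant paralogue, also found with DDX1, had 162, 163 and 151 CPM in shARMC5 and 150, 152 and 150.5 CPM in shNT libraries. Of the shARMC5 libraries the third lay among the shNT libraries and the other two lay above them. FAM98A had a log2 fold change of 0.07 (SE 0.03, 95% interval 0.0039 to 0.14, edgeR unadjusted P = 0.0395, edgeR adjusted P = 0.248). Without shARMC5 replicate 3 it was 0.10 with an adjusted P of 0.0919 in edgeR's test, the only alternative in which any of the 7 genes was called. FAM98A-201 held at least 98.8% of the reads.

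FAM98C (ENSG00000130244, chromosome 19, 38403093 to 38409088, plus strand), the other paralogue, had the fewest reads of the members, 359 to 542 per library. Its levels were 11.8, 13.7 and 14.3 CPM in shARMC5 and 11.99, 13.7 and 13.3 CPM in shNT libraries, and both groups covered nearly the same range. The log2 fold change was 0.03 (SE 0.09, 95% interval -0.16 to 0.22, edgeR adjusted P = 0.903). FAM98C-201 held 64.8% of the TPM, followed by FAM98C-203 (8.44%), the retained-intron FAM98C-204 (8.14%) and FAM98C-209 (6.03%). The TPM share of the leading transcript gave no P at the smallest possible value of 0.1 in the two-sided exact permutation test of any of the 8 genes (unadjusted P = 0.2 for DDX1, 0.3 for FAM98B and 0.4 to 1 for the other 6).

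Levels were compared between genes only per length, as TPM summed over the transcripts of a gene. In shNT cells the order was RTRAF (mean 360 TPM), DDX1 (161), RTCB (123), FAM98A (86.5), ZBTB8OS (74.1), FAM98B (45.6), C2orf49 (16.7) and FAM98C (16.6). The libraries of neighbours in this order overlapped only for C2orf49 and FAM98C. In shARMC5 cells the mean TPM of FAM98B was 16.8, at the level of C2orf49 (16.6) and FAM98C (16.2), and the ranges of these 3 genes overlapped. FAM98A (89.7 TPM) and ZBTB8OS (77.7 TPM) also overlapped there. The TPM of FAM98B was 19.8, 15.7 and 14.9 in shARMC5 and 43.5, 44.2 and 49.03 in shNT libraries, and varied more between replicates than its CPM. FAM98B-202 by itself had 14.99, 15.6 and 14.7 TPM in shARMC5 and 36.3, 34.5 and 34.9 TPM in shNT libraries, and FAM98B-204 added 4.46, 0 and 0 and 7.03, 9.61 and 13.9 TPM.

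The TPM of FAM98B relative to that of RTCB was 0.136 ± 0.0230 in shARMC5 and 0.373 ± 0.0401 in shNT cells (SD, n = 3 each). The same ratio was 1.32 ± 0.00823 and 1.31 ± 0.0106 for DDX1 and 2.89 ± 0.0559 and 2.93 ± 0.170 for RTRAF, where the groups overlapped. The 5 partners together had 739 ± 2.89 TPM in shARMC5 and 734 ± 26.7 TPM in shNT cells, also with overlap. The ratios of FAM98B to RTCB include the short FAM98B-204. It held 22.6, 0 and 0% of the FAM98B TPM in shARMC5 and 16.2, 21.7 and 28.4% in shNT libraries, from few reads.

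Among the FAM98 genes, FAM98A was the most abundant in every library. FAM98B made up 15.6, 12.5 and 12.7% of the summed FAM98 TPM in shARMC5 and 29.4, 29.95 and 32.6% in shNT libraries, and the share of FAM98A was 72.1 to 73.6% and 56.1 to 59.9%. FAM98A and FAM98C together had 106 ± 3.77 TPM in shARMC5 and 103 ± 1.62 TPM in shNT cells (SD, n = 3 each), with overlapping libraries. All 3 genes together had 123 ± 5.22 TPM in shARMC5 and 149 ± 1.48 TPM in shNT cells. Since FAM98B was chosen for its level, these shares and sums are a description. Those with FAM98B also include the TPM of FAM98B-204.

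**Figure D2:**
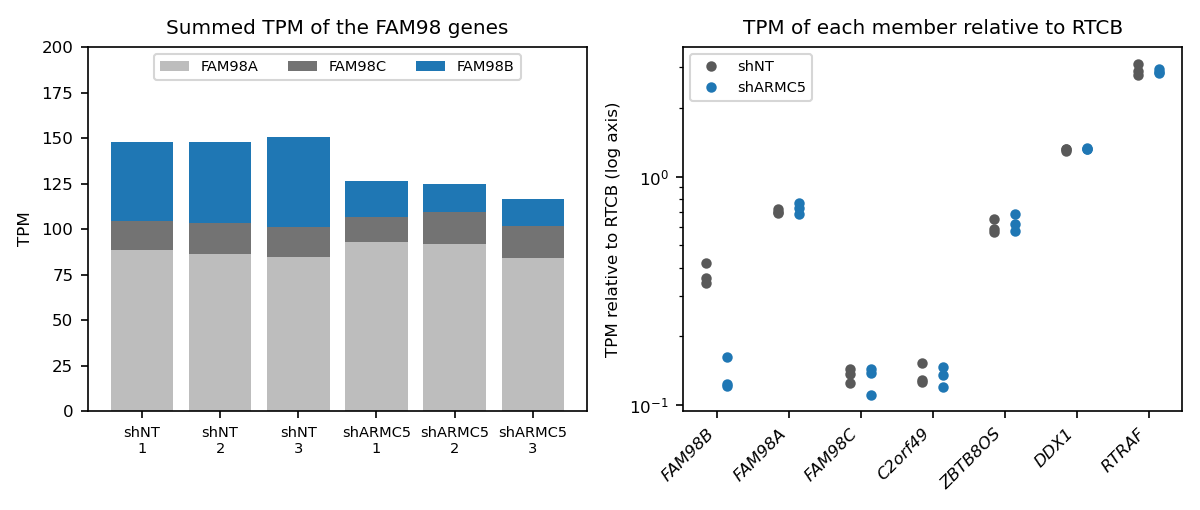
Left, TPM (vertical axis) of FAM98A, FAM98C and FAM98B stacked for each library. Right, TPM of each member divided by that of RTCB in the same library (log axis), shNT in grey and shARMC5 in blue. The blue FAM98B segment shrinks from 43.5 to 49.03 TPM in shNT to 14.9 to 19.8 TPM in shARMC5 libraries, and on the right FAM98B is the only gene whose grey and blue points lie clearly apart.

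The 3 FAM98 mRNAs share only short runs of identical bases. In the MANE Select transcripts the longest run of identical bases was 16 between FAM98A and FAM98B, 12 between FAM98A and FAM98C and 10 between FAM98B and FAM98C. The 16-base run lies in coding sequence, in exon 8 of both genes. Identity along the whole transcripts was not compared. The run is shown here in capitals within 30 bases of each transcript because it is the longest of these runs (GRCh38, FAM98B plus strand at chr15:38484621-38484650, FAM98A minus strand at chr2:33585148-33585177).
FAM98B: ggtggtgGTGGTGGAGGAGGTGGatataga
FAM98A: ggagggaGTGGTGGAGGAGGTGGctaccaa

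No 31-base word was shared between the MANE Select transcripts of RTCB, DDX1 or FAM98A and any other gene, and for FAM98B the share was 1.86%.

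FAM98B and ARMC5 were both lower in the same cells, and their mRNAs were compared for shared sequence. The longest run that the MANE Select transcripts of FAM98B and ARMC5 share on the same strand was 12 bases, in the 3′ UTR of FAM98B (exon 8, plus strand, chr15:38487345-38487374 for the 30 bases shown) and in coding exon 4 of ARMC5 (plus strand, chr16:31464445-31464474). The shared run is in capitals.
FAM98B: agaaaaatgTCCTGAGCAGTGatactatct
ARMC5: cgactggtcTCCTGAGCAGTGtccgccgga

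A run of at least this length with ARMC5 occurred in 69.1% of 12149 MANE Select transcripts of tested genes, whose median was 12 bases. Among the other members the longest run with ARMC5 was 11 bases in RTCB, 12 in DDX1 and ZBTB8OS, 13 in RTRAF, FAM98A and FAM98C, and 14 in C2orf49. The hairpin sequence itself was not analysed here, and short matches to it were not tested.

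The genes on each side of FAM98B were not called. SPRED1, a regulator of RAS signalling on the same strand 96877 bases before FAM98B, had 41.6 ± 0.608 CPM in shARMC5 and 41.5 ± 1.42 CPM in shNT cells (SD, n = 3 each; log2 fold change 0.0045, SE 0.05). RASGRP1, on the opposite strand 392 bases beyond its end, had 3.34 ± 1.59 and 3.36 ± 1.46 CPM (SD, n = 3 each; log2 fold change -0.01, SE 0.58), and its replicates varied widely. Next to FAM98A, LTBP1 was called lower (log2 fold change -0.15, SE 0.04, edgeR adjusted P = 0.0474) and CRIM1, at a distance of 2756430 bases, was called higher (0.27, SE 0.03, adjusted P = 4.51e-05). RASGRP3, which overlaps FAM98A, had at most 65 reads. Next to FAM98C, SPRED3 had a log2 fold change of -0.21 (SE 0.26), and RYR1 had at most 1 read in a library and was not tested. Among the 6 nearest protein-coding neighbours of the 3 FAM98 genes, 5 were tested and 2 were called by edgeR, beside 7.75% of all tested genes. Of the 10 nearest protein-coding neighbours of the other 5 members 7 were tested and 0 were called by edgeR, beside 7.75% of all tested genes (0 with an unadjusted P under 0.05, beside 18.1%), and the 3 that were not tested included both neighbours of RTCB.

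The genes with the expression pattern most like that of FAM98B were found by the Euclidean distance between log2 CPM values centred on each gene's mean over the 6 libraries, among 9331 genes whose mean over the 6 libraries reached 10 CPM. They were ARMC5 itself (distance 0.287), XRCC1, a scaffold of DNA single-strand break repair (0.450), MYO15B (0.619), PKD1P3 (0.686) and the fatty acid desaturase FADS2 (0.729), against a median distance of 1.502. Their log2 fold changes were -1.09, -0.86, -0.73, -0.92 and -1.80, and their being lower in shARMC5 cells follows from how they were picked. FADS2 had 5.58 to 6.16 CPM in the shARMC5 libraries and PKD1P3 6.82 to 11.1 CPM, so that the level in shNT cells brought their means above 10 CPM. PKD1P3 is a pseudogene with near-identical relatives, and its reads are uncertain. The distances of the 7 other members from FAM98B were 1.43 to 1.61, around the median of all genes. The change of FAM98B itself sets most of these distances, so they restate the small fold changes of the 7 and are no separate result.

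The rest of the pathway was described with 39 genes in 4 lists, of which 38 were tested. Of these 38, 3 (7.89%) were called, beside 7.75% of all tested genes called in either direction, and 6 (15.8%) had groups that did not overlap, beside 23.4% of all tested genes. All 3 were higher, and 4.44% of all tested genes were called higher. Over all tested genes 610 calls were higher and 454 lower, and 458 and 495 with scaling by library size alone, where SEC61A1 was the 1 of the 3 still called.

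Upstream of the ligase, the tRNA splicing endonuclease, whose subunits include TSEN15, TSEN34 and TSEN54, cuts the intron out, and the RNA kinase CLP1 associates with it. CLP1 had 19.7, 20.7 and 21.5 CPM in shARMC5 and 17.4, 18.8 and 17.4 CPM in shNT libraries, without overlap. It was called higher (log2 fold change 0.21, SE 0.07, edgeR adjusted P = 0.0906). It passed narrowly and was called in 6 of 17 alternatives of processing and libraries, with an adjusted P of 0.232 with DESeq2 and of 0.113 to 0.256 without any 1 library other than shNT replicate 2. TSEN15 had a log2 fold change of -0.15 (SE 0.06, edgeR adjusted P = 0.173), TSEN54 of -0.02 (SE 0.05) and TSEN34 of 0.02 (SE 0.28), and none of these was called. With all genes of at least 1 count tested, TSEN15 was called lower (edgeR adjusted P = 0.0798). The median of the 4 genes was -0.0040, beside -0.0014 over all tested genes.

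Of the 5 genes of RNA end enzymes and of the protection of RTCB from oxidation, none was called by edgeR, beside 7.75% of all tested genes (0 with an unadjusted P under 0.05, beside 18.1%), and the median log2 fold change was -0.03. CNP, a phosphodiesterase of RNA ends, had a log2 fold change of 0.03 (SE 0.03), RTCA, the RNA 3′-terminal phosphate cyclase, of -0.03 (SE 0.04) and PYROXD1, an oxidoreductase that shields RTCB, of -0.05 (SE 0.05).

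**Figure D3:**
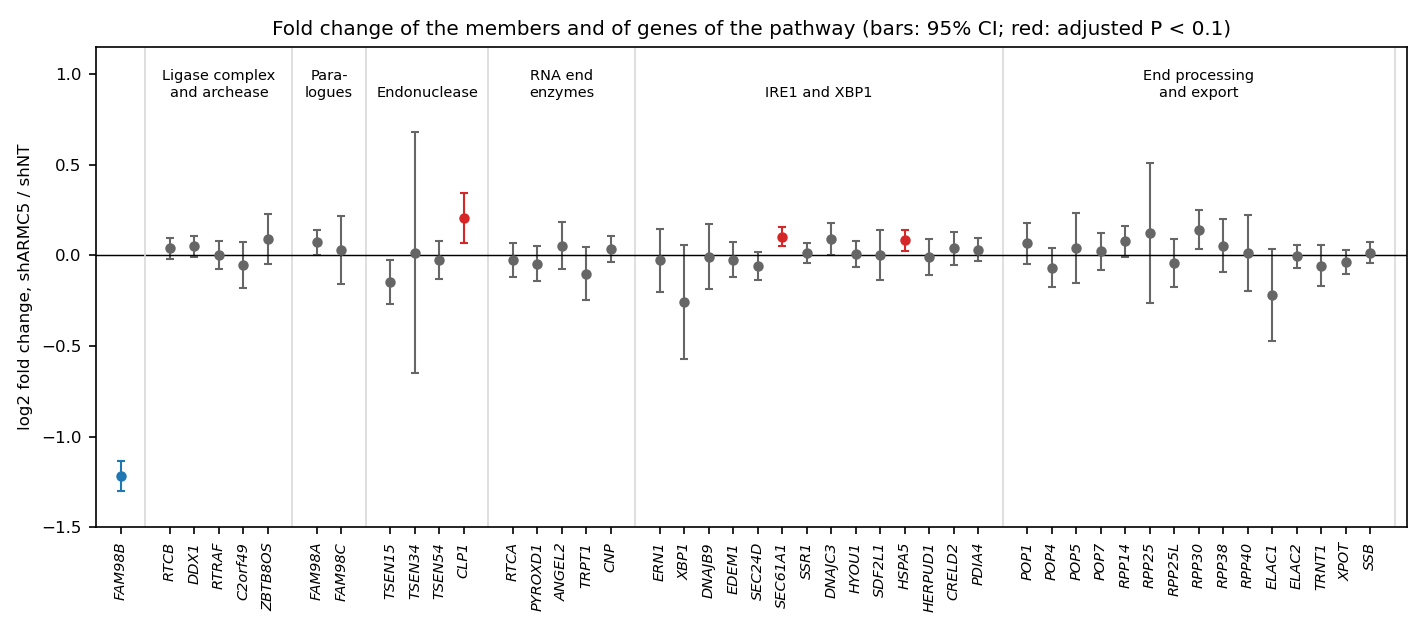
Log2 fold change of shARMC5 over shNT (vertical axis) with its 95% confidence interval for FAM98B (blue), the 7 other members and 38 pathway genes, grouped by list. Red points passed an adjusted P of 0.1 in edgeR's test (CLP1, SEC61A1 and HSPA5), and FAM98B at -1.22 lies far below every other gene, the next lowest being XBP1 at -0.26.

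RTCB also acts in the IRE1 and XBP1 branch of the unfolded protein response, for which 14 genes were listed. Of these 2 were called, both higher by small amounts, beside 4.44% of all tested genes called higher and 7.75% called in either direction. SEC61A1, the channel subunit of the ER translocon, had 538, 530 and 536 CPM in shARMC5 and 491, 504 and 497 CPM in shNT libraries (log2 fold change 0.10, SE 0.02, edgeR adjusted P = 0.0222). HSPA5, the ER chaperone BiP, had 869, 897 and 866 CPM in shARMC5 and 814, 849 and 821 CPM in shNT libraries (log2 fold change 0.08, SE 0.03, edgeR adjusted P = 0.0991). Neither was called with an offset for transcript length in edgeR (adjusted P = 0.297 and 0.284). SEC61A1 was called in 15 of 17 alternatives and HSPA5 in 6, and without any 1 library other than shNT replicate 2 the edgeR adjusted P of HSPA5 was 0.147 to 0.335. Of the uncalled genes with the most reads, HYOU1 had a log2 fold change of 0.01 (SE 0.03), PDIA4 of 0.03 (SE 0.03) and SSR1 of 0.01 (SE 0.03). The median of the 14 genes was 0.0054, beside -0.0014 over all tested genes.

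XBP1, which was singled out after its values were seen, encodes the transcription factor whose mRNA RTCB seals. It had 77.9, 79.5 and 92.1 CPM in shARMC5 and 105, 107 and 85.9 CPM in shNT libraries. The third library of each group went against the other libraries of its group, and the groups overlapped. The log2 fold change was -0.26 (SE 0.12, 95% interval -0.57 to 0.06, edgeR adjusted P = 0.362), and without shNT replicate 3 it was -0.35 with an adjusted P of 0.0553. The stretch by which the unspliced and spliced mRNAs differ is shown because RTCB joins the exons on each side of it. The 26 bases in capitals lie in coding exon 4 of XBP1-201 (GRCh38, minus strand, chr22:28796126-28796155 for the 30 bases shown) and are missing from XBP1-202. Since the sequence repeats at both ends, the missing stretch has 7 equivalent placements, and the capitals mark the one nearest the 5′ end, which need not be where IRE1 cuts.
XBP1-201: ccGCAGCACTCAGACTACGTGCACCTCTgc

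XBP1-202, the form without these bases, held 22.2, 22.1 and 14.1% of the TPM of XBP1 in shARMC5 and 22.0, 15.7 and 9.04% in shNT libraries. The libraries overlapped, and the two-sided exact permutation test of this share gave P = 0.5 (unadjusted, 1 of 6 transcripts of XBP1 compared). XBP1-202 is annotated with 1131 bases, 1128 of them coding, and XBP1-201 with 1850 bases, 783 of them coding. Reads from untranslated parts of spliced mRNA can go to other transcripts, so this share does not measure how much XBP1 mRNA was spliced. The values are uncertain also because of a transcript of 1794 bases, listed right after those of XBP1, that matched no GENCODE 44 gene. It took 457, 671 and 0 reads in shARMC5 and 0, 0 and 233 reads in shNT libraries. With unmatched transcripts added to the gene listed before them, the log2 fold change of XBP1 was -0.12 (SE 0.04, edgeR adjusted P = 0.154).

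The last list held 16 genes of tRNA end processing and export, mostly subunits of RNase P, of which 15 were tested and none was called by edgeR, beside 7.75% of all tested genes (1 with an unadjusted P under 0.05, RPP30, beside 18.1%). RPP30 (log2 fold change 0.14, SE 0.05, edgeR adjusted P = 0.132) was called higher with all genes of at least 1 count (0.0463) and without shARMC5 replicate 1 (0.0516). RPP14 (log2 fold change 0.08, SE 0.04, edgeR adjusted P = 0.331) was called higher with the length offset in edgeR (0.28, adjusted P = 0.0473) and in DESeq2 (0.28, adjusted P = 0.000882). RPP21 had no reads on its matched transcripts and was not tested. SSB, the La protein that binds new tRNA precursors, had a log2 fold change of 0.02 (SE 0.03), ELAC2, which trims tRNA 3′ ends, of -0.01 (SE 0.03) and XPOT, the tRNA exporter, of -0.04 (SE 0.03). The median of the 15 genes was 0.02.

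The results for the members were compared over 17 alternatives of normalization, filter, tool, annotation, threshold and libraries used. The log2 fold change of FAM98B lay between -1.43 and -1.20, and since the gene was chosen for its P value in these libraries, this range is a description. An average length per library weights FAM98B-204 by its TPM, and both fits with an offset for transcript length gave -1.43. RTCB, DDX1, ZBTB8OS and FAM98A were positive throughout, with ranges of 0.03 to 0.05, 0.03 to 0.07, 0.03 to 0.13 and 0.05 to 0.10. RTRAF (-0.03 to 0.05), C2orf49 (-0.09 to 0.01) and FAM98C (-0.02 to 0.11) changed sign between alternatives.

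**Figure D4:**
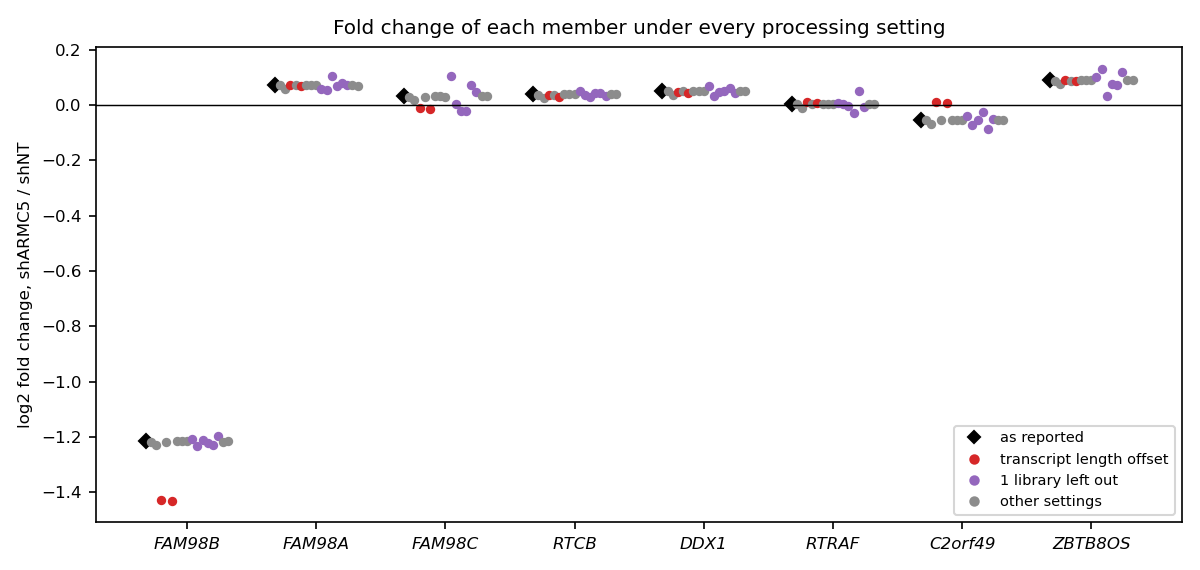
Log2 fold change of shARMC5 over shNT (vertical axis) of each member as reported (black diamond) and under the alternatives, with the offset for transcript length in red, 1 library left out in purple and the other settings in grey. The 7 other members stay between -0.09 and 0.13, and FAM98B stays between -1.43 and -1.20.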

How the data were processed

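Polyadenylated RNA of 3 shARMC5 and 3 shNT libraries was analysed, grouped by GEO's labels. The authors used cutadapt 4.2 for trimming and salmon 1.9.0, GC-corrected, for transcript quantification. The deposited files hold estimated counts, TPM, length and effective length per transcript, not normalized between libraries. Transcripts were matched without version to GENCODE 44 (GRCh38). The 11923 of 177456 without a match (2.96 to 3.04% of reads) were left out.

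Gene sums of the estimated counts were rounded. A minimum of 10 counts in 3 libraries was required, and edgeR 4.0.16 under R 4.3.3 gave the robust quasi-likelihood F test, with TMM factors (0.992 to 1.02), Benjamini-Hochberg adjustment over all tested genes and a threshold of 0.1. Transcripts were fitted likewise (49809 tested, 4 or 0.00803% called). Few reads limit precision by counting error. In simulated data on 13528 genes, 200 of them changed by 1 on the log2 scale, 78.5% were recovered and 11.3% of calls were false. Alternatives were DESeq2 1.42.0, other normalizations, filters, length offsets, unmatched transcripts, a replicate term and each library left out. Exact permutation tests used scipy 1.17.1. Runs of shared bases and 31-base words were found in GENCODE 44 transcripts, without protein sequences. DESeq2 with tximeta was the authors' own test. Their ChIP-seq and proteomics were not analysed here.

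The members and gene lists were chosen with earlier results of these data known, and 1 list gene is not reported here. Named are ARMC5, the members and their transcripts of at least 5% of TPM summed over libraries, list genes that were called and the 3 most abundant uncalled of each list, neighbours of the FAM98 genes, called neighbours of the other members, and the 5 genes nearest to FAM98B. XBP1, RPP30, RPP14, RPP21, the genes that overlap members, FAM98B-201, FAM98B-203, RTRAF-201 and C2orf49-201 are named besides.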

Additional observations from a re-analysis of the deposited data

How the results depend on the processing

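With the offset for transcript length, FAM98B had -1.43 (edgeR) and -1.43 (DESeq2). By unadjusted P value it then ranked 5 among all tested genes in edgeR and 1 in DESeq2. Of all genes, 225 were then called by edgeR, against 1064 without it, and 568 by DESeq2, against 877 without it. With edgeR 532 were called with unmatched transcripts as features of their own and 676 at an adjusted P under 0.05. Leaving out 1 library gave 536 (without shNT replicate 1) to 1074 genes, 583 without shARMC5 replicate 2 and 675 without shNT replicate 3, and 0 to 1 of the 7 other members, the 1 being FAM98A without shARMC5 replicate 3. Over all tested genes, same-numbered libraries did not deviate together (correlations of deviations between -0.0216 and -0.0059). The labels do not say whether the replicate numbers pair samples. With a replicate block 1766 genes and 0 of the 7 were called, and of the pathway genes uncalled without it TSEN15 was lower (adjusted P = 0.0770) and RPP30 higher (0.0402).

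Signs turned for RTRAF, C2orf49 and FAM98C and for transcripts of 4 members, ZBTB8OS among them. RTRAF was -0.0105 with library size alone and -0.0291 to 0.0501 with 1 library left out, C2orf49 was 0.0103 (edgeR) and 0.00541 (DESeq2) with the length offset, and FAM98C was -0.0100 (edgeR) and -0.0148 (DESeq2) with it and -0.0231 to 0.106 with 1 library left out. With library size alone RTRAF-207 had -0.0078 and FAM98C-201 -0.0053, and with the replicate block ZBTB8OS-211 had -0.28. With 1 library left out the ranges were -0.0517 to 0.0645 for RTRAF-207, -0.0456 to 0.266 for C2orf49-202, -0.0891 to 0.0814 for FAM98C-201, and for ZBTB8OS -0.0512 to 0.677 (ZBTB8OS-203), -0.00762 to 0.208 (ZBTB8OS-204), -0.193 to 0.0386 (ZBTB8OS-208), -0.0922 to 0.624 (ZBTB8OS-209), -0.36 to 0.80 (ZBTB8OS-211) and -0.356 to 0.0515 (ZBTB8OS-214). The causes of the changes of sign were not tested. FAM98B-202 on its own kept to a log2 fold change of -1.24 to -1.19 over its 9 alternatives, given as a description. FAM98C had the fewest reads of the members, at most 542 per library, which limits its precision.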
